A study of Mus musculus with 6 samples.

Results

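Chemokines and their receptors were followed in the livers of mice kept for 54 weeks on a high fat diet with sugar water or on chow. The set holds genes whose symbol marks them as a CC, CXC or CX3C chemokine ligand, a CC, CXC or CX3C chemokine receptor, or an atypical chemokine receptor. It came to 53 of the 24982 genes in the tables: 33 ligands and 20 receptors, of which 4 are atypical receptors. The symbol rule leaves out chemokines with other names, such as Pf4, Ppbp and Xcl1, which are described at the end.

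There were 3 liver libraries from male C57BL/6NJ mice on the high fat, high sugar (HFHS) diet and 3 from male C57BL/6NJ mice on chow. PolyA RNA of each was sequenced to a depth of 16565335 to 20585366 reads counted in genes. The age of the mice at the start, and whether tumour tissue was part of a sample, are not given in the labels. The series addresses progression from fatty liver inflammation to liver cancer on a Western diet. The tissue label holds: albumin (Alb) and other hepatocyte markers summed to between 34239 and 89329 CPM on the HFHS diet and to between 90469 and 112247 CPM in chow. CPM (counts scaled to a common library size) is here adjusted by TMM, a correction for libraries in which a few genes take much of the depth.

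Chemokines are small secreted proteins that guide leukocytes along a gradient. They are named by the spacing of their first cysteines (CC, CXC or CX3C) and act through G protein-coupled receptors on leukocytes, while atypical receptors bind and remove them without G protein signalling. In liver, CCL2 and CCR2 are known for bringing in blood monocytes, CXCL1 and CXCL2 for neutrophils, CXCL9 and CXCL10 for CXCR3-bearing T cells, CXCL16 for CXCR6-bearing lymphocytes, and CXCL12 for holding CXCR4-bearing cells near its source.

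On the HFHS diet the receptors Cx3cr1, Ccr2 and Cxcr4, the atypical receptor Ackr3 and the ligands Cxcl16, Cx3cl1, Cxcl14 and Ccl6 were higher than in chow. No member passed the test as lower. The 8 rises lay between 1.81 (Cxcl14) and 4.43 (Cx3cr1) on the log2 scale, and in all 8 the 3 HFHS libraries lay above the 3 chow libraries. The interferon-induced ligands Cxcl9 and Cxcl10, the neutrophil attractant Cxcl1 and the most abundant member, Cxcl12, did not pass.

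Of the 53 members, 28 passed a filter on low counts that asks for about 10 counts in at least 3 libraries. The 3 libraries of one diet are enough for it, so a member can pass through the diet in which it is high. Of those 28, 8 were called higher, 28.6%, against 11.0% of all 12949 genes tested, and 0 were called lower, against 3.61% (edgeR quasi-likelihood test, Benjamini-Hochberg adjusted p under 0.05). At an unadjusted p under 0.05 edgeR had 1 member lower, Cxcl13, and DESeq2 and limma-voom also called 0 lower. With no filter on low counts 50 members were tested and 5 called higher, against 1460 of all 17877 genes tested in that fit. The median log2 fold change was 1.70 over the 28 members and -0.02 over all genes tested. In 14 of the 28 members all HFHS libraries lay above all chow libraries, and in 2 below, against 21.5% and 18.0% of all genes tested.

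**Figure D1:**
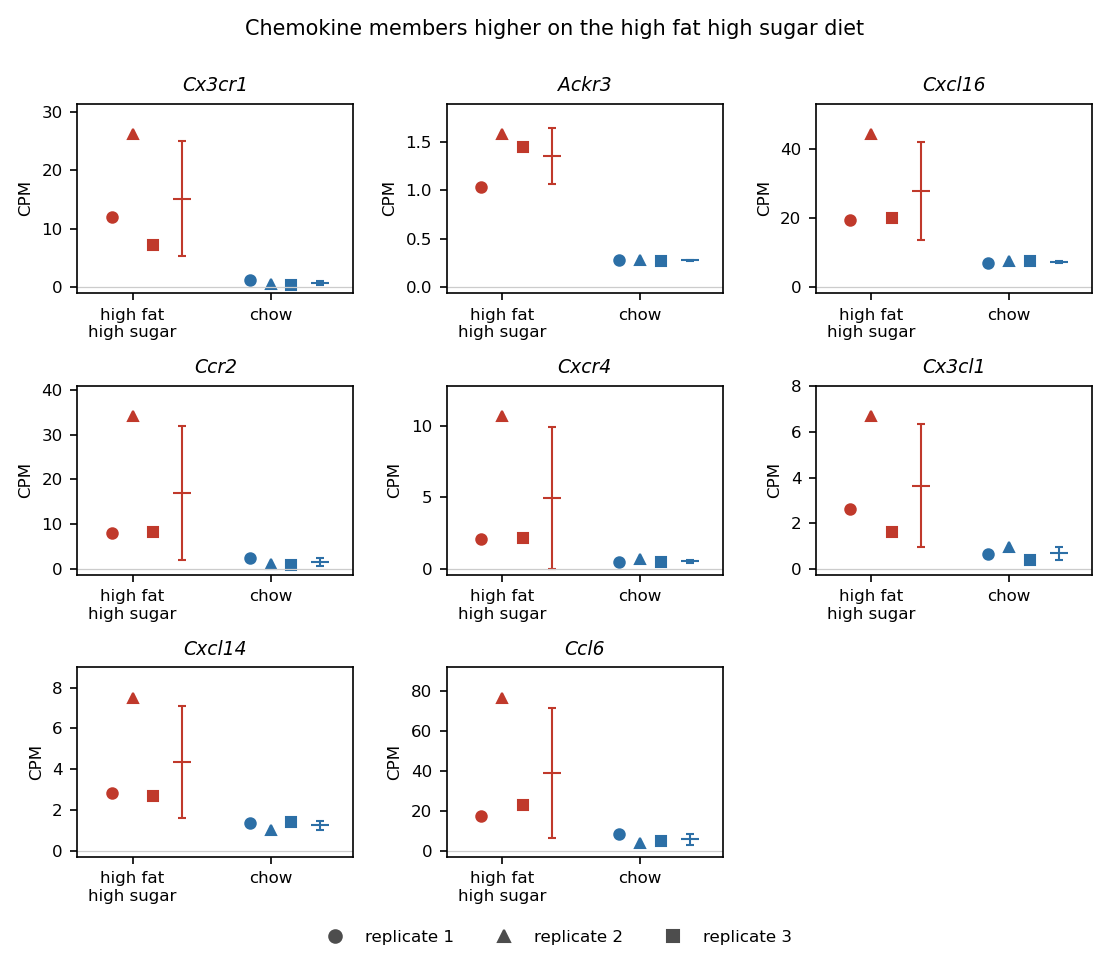
Levels of the 8 members called higher, in CPM on a linear axis for each library, with the mean and SD (n = 3) of each diet at the right of its points. In every panel the HFHS libraries lie above the chow libraries, and HFHS replicate 2 (triangle) is the highest of the 6.

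HFHS replicate 2 stood apart. It was the highest of all 6 libraries for 20 of the 28 tested members (71.4%), against 29.2% of all genes tested, and for each of the 8 called. Its summed markers of monocytes (58.5 CPM), neutrophils (38.2 CPM) and Kupffer cells and macrophages (1792 CPM) were also above those of replicates 1 and 3 of its diet, which had 19.1 and 24.4, 12.6 and 11.6, and 960 and 851 CPM. The same held for the sums of T cell, NK cell, B cell, dendritic cell, stellate cell and bile duct markers. It held too for markers of eosinophils, basophils and mast cells. Endothelial markers went the other way, at 298 CPM against 332 and 368 CPM. The hepatocyte sum was lowest in replicate 2, at 34239 CPM against 89329 and 65201 CPM in replicates 1 and 3. Most of that sum was Alb, at 24173 CPM against 71089 and 50340 CPM. Ttr, Apoa1, Cps1, Serpina1a and Tat were also lowest in it. Asgr1 (418 against 428 and 536 CPM) was close to replicate 1, and Hnf4a (417 against 498 and 402 CPM) was not lowest in it. The part of these cells in the member results was not tested. Without HFHS replicate 2 the same 8 members were called, with a median over the 28 of 1.16 against -0.01 over all genes tested. The filter on low counts was not rerun, so the 28 were still chosen with that library in. Chow replicate 1 was the highest chow library for 15 of the 28 members (53.6%, against 36.4% of all genes tested). Leaving out chow libraries cost calls among all genes tested as well as among members. Over all genes, 1428 were called higher with all 6 libraries, and 758, 362 and 4 without chow replicates 1, 2 and 3. Without chow replicate 1, 2 of the 8 were kept (Ackr3 and Cx3cr1) and Ccl4 and Ccl24 were gained. The same 2 were kept once replicate 2 was left out, and 0 members were called once replicate 3 was, where edgeR called 4 genes higher and 2 lower in all and 11 members had an unadjusted p under 0.05 as higher.

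**Figure D2:**
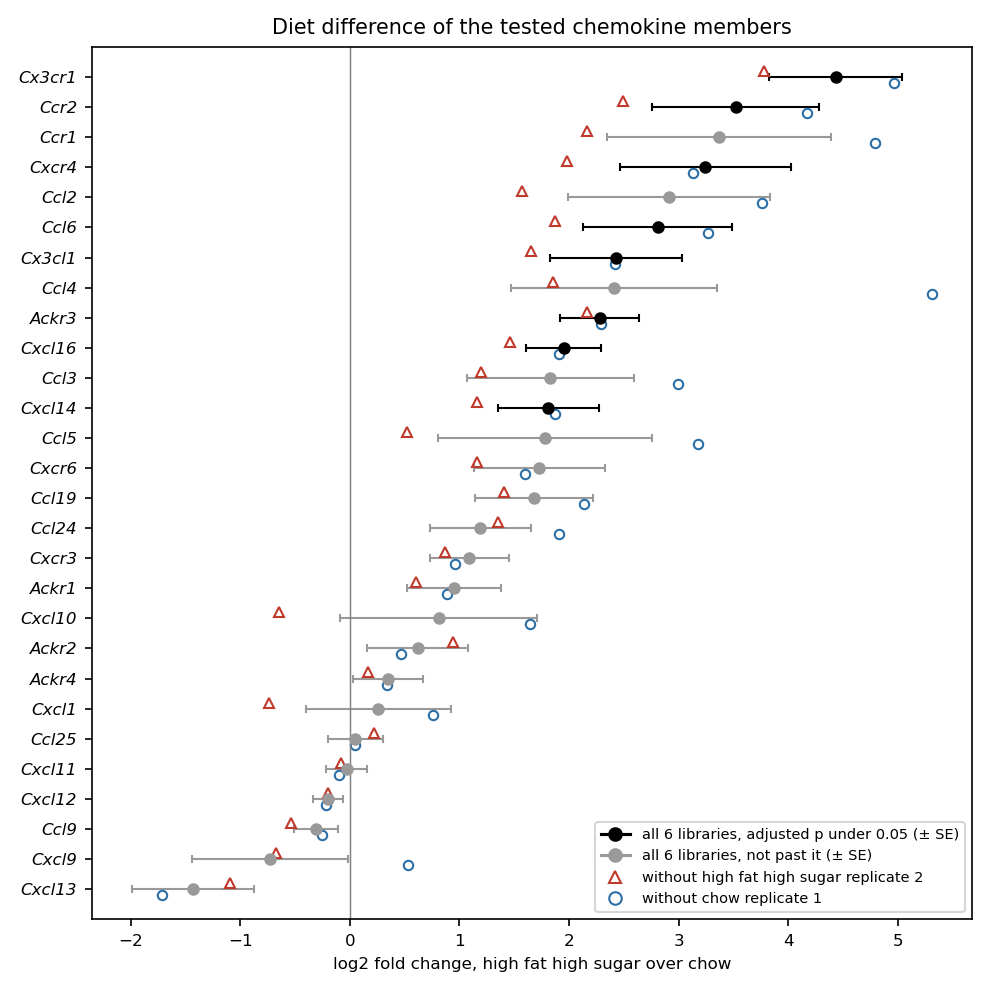
Log2 fold change, HFHS over chow, of the 28 tested members, with bars for the SE; black points passed an adjusted p of 0.05 and grey points did not. Open red triangles are the values without HFHS replicate 2 and open blue circles those without chow replicate 1: for Cxcl1 and Cxcl10 the triangle lies on the other side of 0, and for Cxcl9 the circle does.

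Cx3cr1, the fractalkine receptor of monocytes and macrophages, had the largest log2 fold change and the smallest p of the 28. It was at 12.0, 26.2 and 7.21 CPM in HFHS replicates 1, 2 and 3, against 1.11, 0.550 and 0.404 CPM in chow replicates 1, 2 and 3. The lowest HFHS library was thus well above the highest chow library. The log2 fold change was 4.43 ± 0.61 (standard error; edgeR quasi-likelihood test, Benjamini-Hochberg adjusted p = 0.0110), and 3.78 without HFHS replicate 2. Leaving out each of the 6 libraries in turn gave 3.78 to 4.96, and the call was lost without chow replicate 3 (4.18, adjusted p = 0.0621). Cx3cr1 lies on chromosome 9, 119901616 to 120069879, minus strand (GRCm38; ENSMUSG00000052336.7). In bulk liver RNA, more cells that carry a receptor and more of its RNA in each cell cannot be told apart, here and below.

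Its only ligand, Cx3cl1 or fractalkine, is made as a membrane-bound protein that ADAM proteases can shed. It was at 2.63, 6.70 and 1.62 CPM on the HFHS diet, against 0.667, 0.935 and 0.404 CPM in chow, without overlap. It rose by 2.43 ± 0.60 on the log2 scale (SE; edgeR quasi-likelihood test, Benjamini-Hochberg adjusted p = 0.0368). That value was 1.65 without HFHS replicate 2, and the call was lost without chow replicate 1 (adjusted p = 0.103), chow replicate 2 (0.0826), chow replicate 3 (0.135) or HFHS replicate 1. Cx3cl1 lies on chromosome 8, 94772009 to 94782427 (ENSMUSG00000031778.13). Cx3cl1 and Cx3cr1 were the single pair, of 15 with both partners tested, in which ligand and receptor were both called.

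Ccr2, the receptor that blood monocytes use to leave the bone marrow and enter inflamed tissue, was at 8.11, 34.2 and 8.32 CPM on the HFHS diet. In chow it was at 2.50, 1.04 and 0.808 CPM. The groups did not overlap, and the diet difference was 3.52 ± 0.76 on the log2 scale (SE; edgeR quasi-likelihood test, Benjamini-Hochberg adjusted p = 0.0298), or 2.49 without HFHS replicate 2. Ccr2 missed the threshold without chow replicate 1 (0.0511), 2 (0.0974) or 3 (0.109). It lies on chromosome 9, 124101950 to 124113557 (ENSMUSG00000049103.14).

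Ccr1, which binds CCL3, CCL5, CCL6 and CCL9, had 15, 101 and 15 counts on the HFHS diet, against 7, 0 and 2 counts in chow. Its log2 fold change of 3.37 ± 1.02 (SE) did not pass (edgeR quasi-likelihood test, Benjamini-Hochberg adjusted p = 0.0668), and was 2.16 without HFHS replicate 2 and 4.79 without chow replicate 1. With DESeq2 Ccr1 was called. The other CC receptors were too low for the test. Ccr7, which dendritic cells use to reach lymph nodes, had 8, 35 and 6 counts on the HFHS diet and 9, 2 and 2 in chow. Ccr9 had 2, 13 and 2 counts on the HFHS diet and 3, 7 and 0 in chow, and Ccr3 had 1, 7 and 1 against 2, 0 and 1. Ccr6 and Ccr10 did not exceed 5 counts in any library. Ccr4 and Ccr8 were under the floor of 3 counts in every library.

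Among CXC receptors, Cxcr4, the signalling receptor for CXCL12 on most leukocytes, was at 2.07, 10.7 and 2.12 CPM on the HFHS diet. Chow libraries had 0.445, 0.660 and 0.471 CPM, all below. It rose by 3.24 ± 0.78 on the log2 scale (SE; edgeR quasi-likelihood test, Benjamini-Hochberg adjusted p = 0.0361), which became 1.98 without HFHS replicate 2. The call was lost without any one of the chow libraries (adjusted p up to 0.135). Cxcr4 lies on chromosome 1, 128588199 to 128592293, minus strand (ENSMUSG00000045382.6).

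Cxcr6, which retains T, NKT and resident NK cells in liver sinusoids, was at 0.930, 2.89 and 1.51 CPM on the HFHS diet, against 0.445, 0.935 and 0.202 CPM in chow. The groups overlapped, the lowest HFHS library being just below chow replicate 2. Its log2 fold change of 1.73 ± 0.60 (SE) did not pass (edgeR quasi-likelihood test, Benjamini-Hochberg adjusted p = 0.0931), and was 1.16 without HFHS replicate 2 and 2.42 without chow replicate 2. Cxcr3, the receptor of activated T and NK cells, was at 0.827, 1.27 and 0.894 CPM on the HFHS diet and at 0.389, 0.550 and 0.471 CPM in chow. These did not overlap, yet the difference of 1.09 ± 0.36 (SE) did not pass (edgeR quasi-likelihood test, Benjamini-Hochberg adjusted p = 0.0808). Cxcr2, the neutrophil receptor for CXCL1, CXCL2 and CXCL5, was too low for the test with 7, 69 and 8 counts on the HFHS diet and 6, 0 and 0 in chow. Most of its reads lay in HFHS replicate 2, the library with the highest neutrophil markers. Cxcr5, the B cell receptor for CXCL13, had 4, 17 and 8 counts against 7, 6 and 4 in chow, and Cxcr1 stayed under the floor.

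Ackr3, an atypical receptor that takes up CXCL11 and CXCL12, was nearly level among the chow libraries. It was at 1.03, 1.58 and 1.45 CPM on the HFHS diet and at 0.278, 0.275 and 0.269 CPM in chow. The rise was 2.28 ± 0.36 on the log2 scale (SE; edgeR quasi-likelihood test, Benjamini-Hochberg adjusted p = 0.0127), with 2.16 to 2.44 when each library was left out. Chow held 5, 5 and 4 counts, so its level there rests on few reads, and the call was lost without chow replicate 3 (adjusted p = 0.0642). Ackr3 lies on chromosome 1, 90203980 to 90216751 (ENSMUSG00000044337.5).

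The 3 other atypical receptors did not pass. Ackr2, which clears inflammatory CC chemokines, was at 2.74, 1.85 and 5.75 CPM on the HFHS diet against 1.72, 3.02 and 1.89 CPM in chow. Ackr4, which takes up CCL19, CCL21 and CCL25, was at 0.878, 1.50 and 1.28 CPM against 0.946, 0.935 and 1.01 CPM in chow. Its exons share 479 bases with Acad11 on the other strand, which was at 326 to 532 CPM. The strand setting of the counting is not named, so reads there are uncertain. Ackr1, the Duffy receptor of venules and red cells, was at 0.620, 1.65 and 1.23 CPM against 0.556, 0.660 and 0.606 CPM in chow, a log2 fold change of 0.95 ± 0.43 (standard error; edgeR quasi-likelihood test, Benjamini-Hochberg adjusted p = 0.171). Exons of Ackr1 share 361 bases with Cadm3 on the same strand in the GENCODE annotation, so reads there are uncertain.

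**Figure D3:**
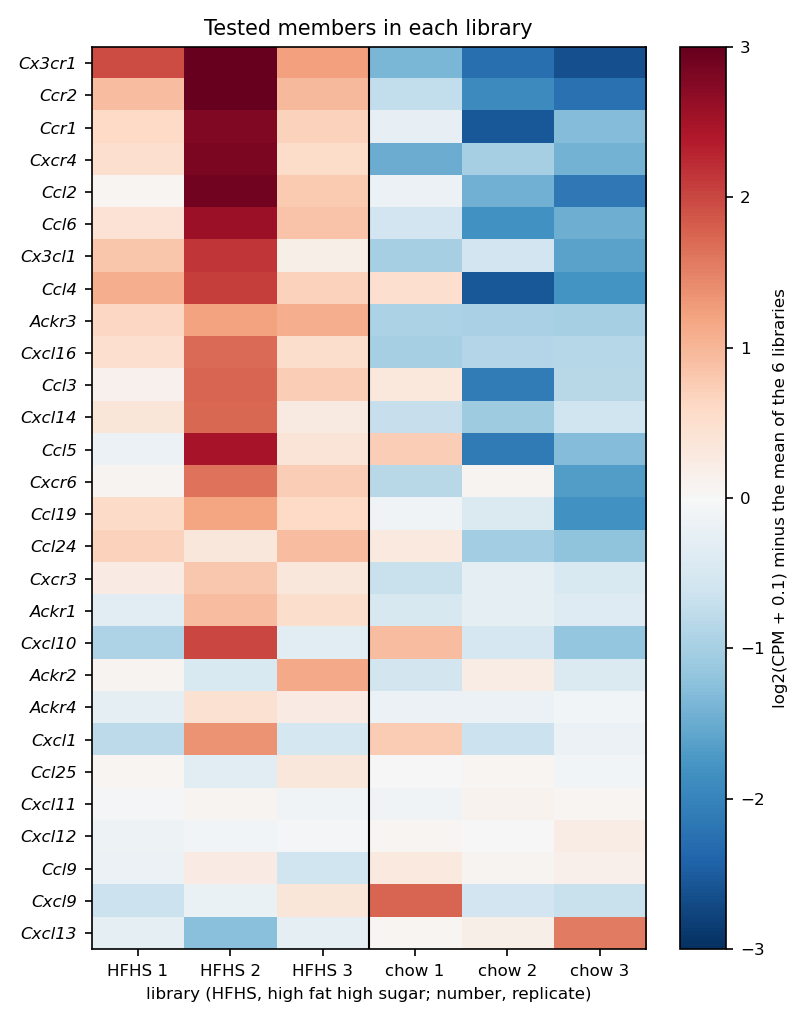
Level of each tested member in each library as log2(CPM + 0.1) minus the mean of the 6 libraries for that gene, with colours that end at 3 above and 3 below the mean. HFHS replicate 2 is the darkest red column for Ccr2, Cxcr4, Ccl2 and Cxcl10, and chow replicate 1 is red for Cxcl9, Cxcl10, Ccl5 and Cxcl1.

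Of the 4 ligands called, Cxcl16 had the smallest p. CXCL16 is a transmembrane chemokine of macrophages, sinusoidal endothelium and bile duct cells that also takes up oxidised lipoproteins. Its level was 19.6, 44.4 and 19.9 CPM on the HFHS diet, against 6.84, 7.42 and 7.48 CPM in chow. It rose by 1.95 ± 0.34 on the log2 scale (SE; edgeR quasi-likelihood test, Benjamini-Hochberg adjusted p = 0.0157) and by 1.46 without HFHS replicate 2. The adjusted p was 0.0505, 0.0594 and 0.0776 without chow replicates 1, 2 and 3. Cxcl16 lies on chromosome 11, 70453983 to 70459984, minus strand (ENSMUSG00000018920.11). Its exons share 552 bases with Zmynd15 on the other strand, and Zmynd15 had a log2 fold change of 0.69.

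Cxcl14, a chemokine of epithelia and fibroblasts, was at 2.84, 7.50 and 2.68 CPM on the HFHS diet. In chow it was at 1.33, 0.990 and 1.41 CPM, without overlap. The rise was 1.81 ± 0.46 on the log2 scale (SE; edgeR quasi-likelihood test, Benjamini-Hochberg adjusted p = 0.0395), and 1.16 without HFHS replicate 2. Leaving out chow replicate 1 (0.101), 2 (0.122) or 3 (0.118) ended the call. Cxcl14 lies on chromosome 13, 56288643 to 56296551, minus strand (ENSMUSG00000021508.11).

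Ccl6, a macrophage chemokine found in rodents, was at 17.3, 76.4 and 23.0 CPM on the HFHS diet and at 8.51, 3.52 and 4.58 CPM in chow. All HFHS libraries were above chow, with replicate 2 far above the other 2. It rose by 2.81 ± 0.68 on the log2 scale (SE; edgeR quasi-likelihood test, Benjamini-Hochberg adjusted p = 0.0423), or by 1.87 without HFHS replicate 2. Its adjusted p was 0.0662, 0.117 and 0.144 without chow replicates 1, 2 and 3. Ccl6 lies on chromosome 11, 83587882 to 83593087, minus strand (ENSMUSG00000018927.3). Ccl9, its neighbour and another CCR1 ligand, was at 47.5, 63.9 and 35.7 CPM against 66.1, 57.0 and 59.5 CPM in chow, and its change of -0.31 ± 0.20 (SE) did not pass (edgeR quasi-likelihood test, Benjamini-Hochberg adjusted p = 0.329).

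Ccl2, the main monocyte attractant, was at 1.91, 14.3 and 3.24 CPM on the HFHS diet and at 1.61, 0.605 and 0.337 CPM in chow. Replicate 1 of the HFHS group was thus close to chow replicate 1. The log2 fold change of 2.91 ± 0.92 (SE) did not pass (edgeR quasi-likelihood test, Benjamini-Hochberg adjusted p = 0.0800). It was 1.57 without HFHS replicate 2, and Ccl2 was called with DESeq2 and without HFHS replicate 1. Ccl7, which binds the same receptor and lies beside Ccl2, had 3, 73 and 3 counts on the HFHS diet and 4, 2 and 0 in chow, too few for the test. For Ccl12 no library exceeded 6 counts.

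The ligands Ccl3, Ccl4 and Ccl5, made by activated macrophages, T and NK cells, did not pass. Ccl5 was at 2.63, 16.8 and 3.91 CPM on the HFHS diet and at 5.06, 0.605 and 1.14 CPM in chow, where replicate 1 exceeded 2 HFHS libraries. Its log2 fold change was 1.78 ± 0.98 (standard error; edgeR quasi-likelihood test, Benjamini-Hochberg adjusted p = 0.264), 0.52 without HFHS replicate 2 and 3.18 without chow replicate 1. Ccl3 was at 0.620, 2.12 and 1.01 CPM against 0.723, 0.0550 and 0.269 CPM in chow. Ccl4 had 22, 61 and 15 counts against 13, 0 and 1 in chow, and was called once chow replicate 1 was left out (edgeR quasi-likelihood test, Benjamini-Hochberg adjusted p = 0.0372).

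Ligands of eosinophils, dendritic cells and the gut were low. Ccl24, an eosinophil attractant of macrophages, was at 2.79, 2.16 and 3.30 CPM on the HFHS diet, against 2.11, 0.770 and 0.673 CPM in chow. The libraries did not overlap, and its change of 1.19 ± 0.46 (SE) missed the threshold (edgeR quasi-likelihood test, Benjamini-Hochberg adjusted p = 0.118) but passed without chow replicate 1 (0.0372), at 1.91. Ccl19, which binds CCR7, was at 0.775, 1.23 and 0.782 CPM against 0.445, 0.330 and 0.0673 CPM in chow (1.68 ± 0.54, SE; edgeR quasi-likelihood test, Benjamini-Hochberg adjusted p = 0.0772). Ccl22, a dendritic cell ligand of CCR4, had 19, 29 and 6 counts against 5, 0 and 0 in chow and was not tested. Ccl25, the gut and thymus ligand of CCR9, was at 3.05, 2.27 and 3.69 CPM against 2.89, 3.02 and 2.76 CPM in chow, a difference of 0.05 ± 0.25 on the log2 scale (SE).

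Cxcl12 was the most abundant member by far and differed little. CXCL12 is made by stromal cells and sinusoidal endothelium and is the ligand of CXCR4 and ACKR3. It had 372, 385 and 391 CPM on the HFHS diet against 429, 416 and 478 CPM in chow. All HFHS libraries lay below chow, but the difference of -0.20 ± 0.14 on the log2 scale (SE) did not pass (edgeR quasi-likelihood test, Benjamini-Hochberg adjusted p = 0.365) and became 0.07 when libraries were scaled by size only. Cxcl12 made up 69.5%, 48.0% and 69.0% of all reads of the 53 members on the HFHS diet and 67.2%, 78.3% and 80.1% in chow.

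Per kilobase of transcript, which lets genes be set side by side, Cxcl12 was at 122 ± 3.22 CPM per kilobase on the HFHS diet and 141 ± 10.5 in chow (SD, n = 3), and ranked highest of the 53 in every library. On the HFHS diet Ccl6 (27.0 ± 22.6 CPM per kilobase), Cxcl1 (17.3 ± 15.1), Ccl9 (16.3 ± 4.71), Ccl5 (14.6 ± 14.7) and Cxcl16 (10.4 ± 5.27) followed, with spreads that overlap. In chow the order after Cxcl12 was Ccl9 (20.3 ± 1.55 CPM per kilobase), Cxcl1 (14.6 ± 7.54), Cxcl9 (9.98 ± 10.1) and Cxcl10 (5.58 ± 4.30), again with neighbours that overlap. Ccl6 was in place 3, 2 and 2 in HFHS replicates 1, 2 and 3, and in place 7, 9 and 5 in the chow replicates. Among receptors, Cx3cr1 was at 3.37 ± 2.19 CPM per kilobase on the HFHS diet, against 0.153 ± 0.0832 in chow. Ccr2 (2.95 ± 2.62 CPM per kilobase) and Cxcr4 (2.76 ± 2.76) came next on that diet, both within its spread.

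The interferon-induced and neutrophil-attracting CXC ligands turned on single libraries. Cxcl9, induced by interferon gamma, was at 11.8, 16.3 and 24.1 CPM on the HFHS diet and at 62.5, 12.4 and 11.6 CPM in chow. Chow replicate 1 was the highest of all 6 libraries, at 2.60 times the highest HFHS library. The log2 fold change was -0.73 ± 0.71 (standard error; edgeR quasi-likelihood test, Benjamini-Hochberg adjusted p = 0.522) and 0.53 without chow replicate 1. Cxcl10, also induced by interferons, was at 3.10, 24.2 and 4.69 CPM against 11.5, 4.23 and 2.63 CPM in chow, with a change of 0.81 ± 0.90 (SE; edgeR quasi-likelihood test, Benjamini-Hochberg adjusted p = 0.580) that was -0.65 without HFHS replicate 2.

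Cxcl1, which draws neutrophils, was at 7.49, 33.1 and 8.99 CPM on the HFHS diet and at 22.0, 8.19 and 11.5 CPM in chow, with a change of 0.26 ± 0.66 (SE; edgeR quasi-likelihood test, Benjamini-Hochberg adjusted p = 0.821) that was -0.74 without HFHS replicate 2. Cxcl2 and Cxcl5, which share its receptor, had 8, 36 and 6 counts and 3, 29 and 7 counts on the HFHS diet. In chow they had 7, 0 and 2 counts and 3, 2 and 0 counts, and neither was tested. Cxcl11, annotated by GENCODE as a polymorphic pseudogene, was at 3.67, 3.96 and 3.46 CPM against 3.45, 4.01 and 3.91 CPM in chow (-0.03 ± 0.19 on the log2 scale, SE). Exons of Cxcl11 share 1582 bases, 41.7% of their length, with the processed pseudogene Gm2673 on the other strand, so reads there are uncertain. Cxcl13, the B cell attractant, was at 0.775, 0.346 and 0.782 CPM against 1.00, 1.10 and 3.03 CPM in chow, lower in all 3 libraries, with a change of -1.43 ± 0.56 (SE; edgeR quasi-likelihood test, Benjamini-Hochberg adjusted p = 0.120) that was -0.75 without chow replicate 3.

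Chow replicate 1 also had the highest sums of NK cell, T cell, neutrophil, monocyte and macrophage markers among the chow libraries. It did not for markers of B cells, of dendritic cells, or of eosinophils, basophils and mast cells. NK cell markers summed to 4.89 CPM in it, against 1.21 and 1.35 CPM in chow replicates 2 and 3, T cell markers to 9.34 against 5.83 and 3.70 CPM, and neutrophil markers to 8.18 against 3.13 and 2.36 CPM. Monocyte markers summed to 12.6 against 8.69 and 9.50 CPM, and Kupffer cell and macrophage markers to 399 against 281 and 349 CPM. B cell markers summed to 4.56 CPM in it, against 4.51 and 4.78 CPM, and dendritic cell markers to 8.45 against 6.93 and 10.1 CPM. Markers of eosinophils, basophils and mast cells summed to 0.167 CPM in it, against 0.495 and 0.135 CPM. The part of these cells in its levels of Cxcl9, Cxcl10, Ccl4 and Ccl5 was not tested.

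The 250 bases before the RefSeq start of 5 of these genes are printed to show where the sequence letters of inflammatory transcription factors fall. They are Cxcl1 (chr5:90890995-90891244, plus strand), Cxcl2 (chr5:90903649-90903898, plus strand), Cxcl10 (chr5:92348890-92349139, minus strand), Cxcl14 (chr13:56296552-56296801, minus strand) and Cx3cr1 (chr9:120068297-120068546, minus strand), from RefSeq on GRCm38.p6, 5′ to 3′ in the direction of the gene. Capitals mark matches on either strand to the NF-kB consensus, to the interferon-stimulated response element (ISRE, which is GAAA, any 2 bases, GAAA), to the interferon gamma activated site (GAS, TTCNNNGAA) or to a PU.1 site (GAGGAAGT).
Cxcl1: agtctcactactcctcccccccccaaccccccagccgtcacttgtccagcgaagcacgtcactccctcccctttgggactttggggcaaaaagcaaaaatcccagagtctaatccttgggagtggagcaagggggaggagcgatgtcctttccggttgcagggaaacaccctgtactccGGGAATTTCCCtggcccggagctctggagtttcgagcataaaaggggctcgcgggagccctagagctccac
Cxcl2: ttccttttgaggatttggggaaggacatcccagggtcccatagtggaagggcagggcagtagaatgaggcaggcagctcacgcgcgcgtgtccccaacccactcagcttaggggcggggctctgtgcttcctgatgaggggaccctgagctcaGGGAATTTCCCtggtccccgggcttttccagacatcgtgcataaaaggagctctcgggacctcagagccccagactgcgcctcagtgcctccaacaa
Cxcl10: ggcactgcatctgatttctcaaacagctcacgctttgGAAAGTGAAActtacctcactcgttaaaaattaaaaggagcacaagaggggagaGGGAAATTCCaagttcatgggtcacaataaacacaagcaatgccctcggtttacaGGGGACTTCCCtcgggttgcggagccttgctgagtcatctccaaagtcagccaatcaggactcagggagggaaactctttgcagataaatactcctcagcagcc
Cxcl14: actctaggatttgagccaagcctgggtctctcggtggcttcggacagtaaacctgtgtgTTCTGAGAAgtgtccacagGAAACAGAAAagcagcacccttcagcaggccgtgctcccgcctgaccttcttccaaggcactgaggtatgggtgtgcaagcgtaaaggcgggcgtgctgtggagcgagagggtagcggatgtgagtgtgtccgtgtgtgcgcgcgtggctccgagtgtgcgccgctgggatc
Cx3cr1: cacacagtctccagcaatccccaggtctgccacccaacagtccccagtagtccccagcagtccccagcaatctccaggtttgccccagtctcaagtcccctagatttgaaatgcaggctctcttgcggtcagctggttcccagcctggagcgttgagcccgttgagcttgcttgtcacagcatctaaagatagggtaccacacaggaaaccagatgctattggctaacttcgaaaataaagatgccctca

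Cxcl1 and Cxcl2 each hold an NF-kB match in the same run of letters, read on both strands, and Cxcl10 holds NF-kB matches at 2 places, overlapping matches counted as 1 place, and an ISRE match. Cxcl14 holds an ISRE and a GAS match that do not overlap, and the Cx3cr1 window holds none of the 4. That window lies inside the GENCODE span of Cx3cr1, which on the minus strand starts at 120069879. Bases before that start were not searched. A promoter was found for 39 of the 53 members. Over those windows of 300 bases, which reach 50 bases past the start, an NF-kB match was present for 11 members, against 8.46% of all 32851 promoters, an ISRE match for 3 (3.44%), a GAS match for 3 (8.30%) and a PU.1 match for 1 (3.20%). Of the 8 members called higher, 7 had a promoter in the table, all but Cxcl16. None of those 7 held an NF-kB match, and 1, Cxcl14, held an ISRE match. A match is a run of letters and not a shown site.

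Ligands were set beside their textbook receptors in 35 pairs, none of which held the tested members Cxcl14 (called higher), Ccl4, Ackr1 or Ackr2. Of the 15 with both partners tested, 1 had both called, 4 had the receptor called and not the ligand, 2 the ligand and not the receptor, and 8 neither. The receptor had the larger log2 fold change in 13 of the 15. Pairs share genes, so these counts are not independent. Receptors with few counts in chow, such as Ccr1 (7, 0 and 2) and Ackr3 (5, 5 and 4), entered the test through their HFHS counts. The filter thus favours low receptors with large rises, and the 13 of 15 cannot be read apart from it. Cxcl11, annotated as a polymorphic pseudogene, is among the ligands. Whether ligand and receptor differed from each other within a pair was not tested.

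**Figure D4:**
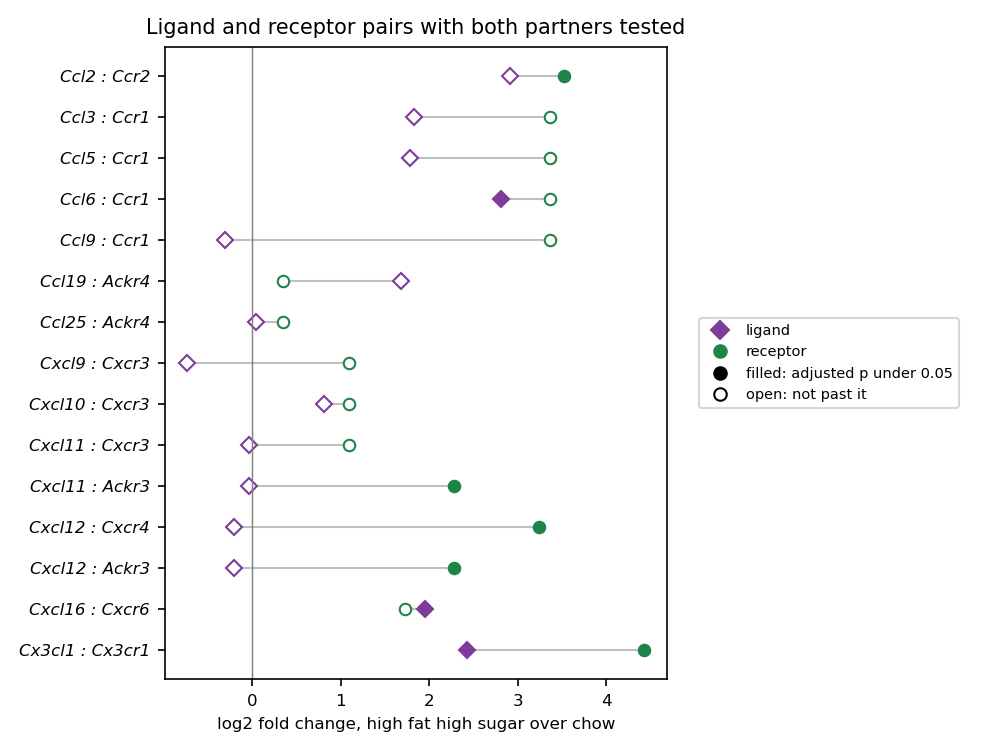
Log2 fold change, HFHS over chow, of the ligand (diamond) and the receptor (circle) in the 15 pairs with both partners tested; filled symbols passed an adjusted p of 0.05. The receptor lies right of the ligand in 13 pairs, and the pair Cx3cl1 and Cx3cr1 has both symbols filled. Receptors low in chow could enter only through their HFHS counts.

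For the CXCL12 axis, the ligand stood at -0.20 ± 0.14 and its receptors Cxcr4 and Ackr3 at 3.24 ± 0.78 and 2.28 ± 0.36 on the log2 scale (SE). On the monocyte axis Ccl2 (2.91 ± 0.92) and Ccr2 (3.52 ± 0.76) had like values, the receptor alone past the threshold. Ccl3 (1.83 ± 0.76) and Ccl5 (1.78 ± 0.98) stood below their receptor Ccr1 (3.37 ± 1.02), and none of these was called. Cxcl16 (1.95 ± 0.34) was called and its receptor Cxcr6 (1.73 ± 0.60) was not. On the CXCR3 axis, Cxcl9 (-0.73 ± 0.71), Cxcl10 (0.81 ± 0.90) and Cxcr3 (1.09 ± 0.36) were all short of it. In 6 pairs the ligand alone could be tested, among them Ccl24 with Ccr3, Ccl25 with Ccr9 and Cxcl1 with Cxcr2. In 3 pairs the receptor alone could be, and in 11 neither.

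Depth set what could be seen. A floor of 3 counts, which is 0.146 to 0.181 CPM before TMM scaling, was missed in all 6 libraries by 9 members: Ccl1, Ccl11, Ccl17, Ccl26, Cxcl3, Cxcl15, Ccr4, Ccr8 and Cxcr1. Ccl1, Ccl26 and Cxcl15 had no read in any library. These genes were not detectable at this depth, which does not show that they are absent from liver. Another 16 members reached the floor in at least 1 library but were too low for the test, and 14 of those had their most reads in HFHS replicate 2. Ccl20, the ligand of CCR6, had 0, 19 and 1 counts on the HFHS diet and 0, 1 and 0 in chow, and Cxcl17 had 0, 3 and 0 against 0 in each chow library. Ccl28 (4, 5 and 1 counts against 0, 6 and 5) and Ccl8 (1, 6 and 2 against 4, 2 and 3) overlapped between the diets. The number of members at or above the floor was 36, 43 and 37 in HFHS replicates 1, 2 and 3 and 38, 28 and 28 in the chow replicates.

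**Figure D5:**
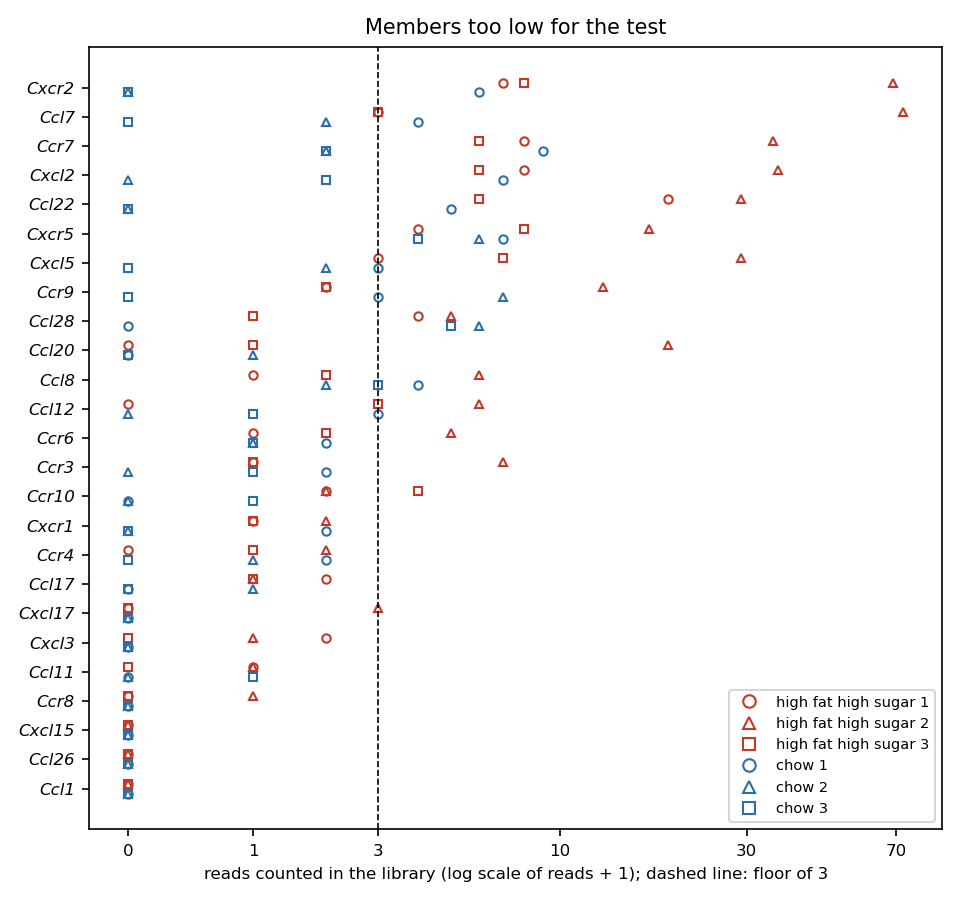
Reads counted in each library for the 25 members too low for the test, on a log scale of reads + 1, with a dashed line at the floor of 3. The symbol farthest to the right is HFHS replicate 2 (red triangle) for 14 of the 16 members that reach the floor, with up to 73 reads for Ccl7 and 69 for Cxcr2. Reads are not scaled for depth, and HFHS replicate 2 is the deepest library.

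Chemokine genes with other symbols were listed apart, with the chemoattractant chemerin and a family of chemokine-like membrane proteins. The list and those that follow were drawn up with earlier results of these data known. Calls are from the same edgeR test. For these lists and the marker lists below, calls stand against 11.0% higher and 3.61% lower over all genes tested, and medians against -0.02. Of 11 tested with a median log2 fold change of 1.18, 5 rose and 0 fell: Cmklr1, the chemerin receptor (7.49 ± 2.50 CPM on the HFHS diet, 1.85 ± 0.227 CPM in chow, SD, n = 3), Cmtm3, Cmtm7, the platelet chemokine Pf4 (1.73 ± 0.607 against 0.490 ± 0.169 CPM) and Xcr1, the receptor of cross-presenting dendritic cells (1.41 ± 0.348 against 0.401 ± 0.206 CPM). A further 3 were lower in every library without passing: Ccl27a, Cmtm6 and Rarres2, which encodes chemerin, at 429 ± 12.4 CPM against 618 ± 102 CPM in chow. Ccrl2, an atypical receptor that binds chemerin, was higher in every library without passing (3.20 ± 1.50 against 1.43 ± 0.290 CPM). Ppbp, another platelet chemokine, did not pass (1.13 ± 0.173 against 0.624 ± 0.507 CPM). Xcl1, the ligand of XCR1, was too low for the test at 0.310, 0.654 and 0.447 CPM on the HFHS diet and 0.167, 0.165 and 0.135 CPM in chow. Ccl21a, Ccl21b, Ccl21c and Ccl27b, which have near-identical copies in the mouse genome, had no read in any library.

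Downstream of the receptors, 17 of 37 tested signalling genes rose and 0 fell, with a median log2 fold change of 0.78. The smallest p went with the beta-arrestin Arrb1 (24.7 ± 4.42 CPM against 11.2 ± 0.475 in chow, SD, n = 3), the leukocyte Rac activator Dock2 (15.1 ± 6.81 against 3.28 ± 0.373 CPM) and the G protein regulator Rgs2 (20.0 ± 10.2 against 3.44 ± 1.02 CPM). Leukocyte adhesion genes rose in 9 of 16 and fell in 0, with a median of 1.57, led by Pecam1, the integrin Itgal (35.4 ± 10.2 against 10.5 ± 2.86 CPM) and Itgax (19.1 ± 15.6 against 1.36 ± 0.618 CPM). Genes that induce chemokines rose in 5 of 27 and fell in 0, with a median of 0.40: Il1a, Tlr4, Ifngr1, Irf8 and Il1b. Proteases and proteoglycans that cut or bind chemokines rose in 6 of 15, led by Sdc3, Hpse and Mmp2, and 1, the syndecan Sdc4, fell (219 ± 35.1 against 354 ± 14.0 CPM). Adam10, which sheds CXCL16 and CX3CL1, was among the rises (58.6 ± 12.3 against 39.5 ± 1.12 CPM).

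Markers of leukocytes and other liver cells were counted against the same shares. The single calls among monocyte and NK cell markers are near the 11.0% of all genes. Among 12 markers of Kupffer cells and macrophages, 9 rose and 2 fell, with a sum of 851 to 1792 CPM on the HFHS diet and 281 to 399 CPM in chow. Those that fell were Cd163 (0.125 ± 0.129 against 16.7 ± 3.5 CPM, SD, n = 3) and Marco (1.35 ± 0.753 against 17.1 ± 10.7 CPM), and Timd4 did not pass. The sum thus joins markers that moved in opposite directions. Monocyte markers rose in 1 of 7 tested, with sums of 19.1 to 58.5 CPM against 8.69 to 12.6 CPM, and dendritic cell markers in 2 of 5, with 13.6 to 21.5 CPM against 6.93 to 10.1 CPM. Neutrophil markers passed in 0 of 4, with sums of 11.6 to 38.2 CPM against 2.36 to 8.18 CPM, and Ly6g had no read in chow. T cell markers passed in 0 of 5 (6.61 to 14.9 CPM against 3.70 to 9.34 CPM), B cell markers in 0 of 7 (5.98 to 9.54 against 4.51 to 4.78 CPM) and NK cell markers in 1 of 6 (4.70 to 8.54 against 1.21 to 4.89 CPM). Markers of eosinophils, basophils and mast cells summed to 0.726 to 3.50 CPM against 0.135 to 0.495 CPM, with the 1 tested (Siglecf) called higher and Epx and Fcer1a without a read. Endothelial, stellate cell and bile duct markers, of cells that make Cxcl12, Cxcl14, Cxcl16 and Cx3cl1, rose in 5 of 8, 7 of 8 and 6 of 7. Their summed levels were 298 to 368, 458 to 735 and 173 to 291 CPM on the HFHS diet, and 195 to 233, 181 to 229 and 24.4 to 44.4 CPM in chow. Most of the bile duct sum was the single gene Spp1, at 190, 264 and 161 CPM on the HFHS diet and 39.5, 34.3 and 18.3 CPM in chow. Most of the stellate cell sum was Dcn. The part of any of these cell types in the chemokine results was not tested.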

How the data were processed

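Per the labels' protocols, polyA RNA of frozen liver went into a dUTP-based stranded library, and per the submitters' processing notes reads were aligned with STAR (no version named) to mm10. No source used here names the counting program, its annotation or its strand setting. Each library has 1 deposited table of raw read counts by gene symbol, whole numbers without normalisation. The rows for reads outside genes (7.74% to 10.6% of all counts) and for ambiguous reads (0.615% to 0.862%) were left out. Libraries within a diet differed by far more than sampling noise (chi-square per gene of at least 23.5). Nothing in the labels ties each sample to a separate animal, so a p-value here reflects the spread among the libraries, which may be technical. The deposited names of the tables differ in form between the diets and no batch is given, so any difference in handling and the diet cannot be told apart.

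All 12949 genes that passed filterByExpr (minimum count 10) were fitted with edgeR 4.0.16 in R 4.3.3, using TMM scaling and the robust quasi-likelihood F test of diet without covariates. Benjamini-Hochberg adjustment was over all of them, with a threshold of 0.05. The SE is the log2 fold change divided by the square root of F. DESeq2 1.42.0, limma-voom 3.58.1, RLE scaling, library size only, no filter, a replicate block and each library left out were alternatives, and the fits were tested on simulated counts. Fits with a library left out kept the genes that passed the filter on all 6 libraries. Gene positions, exon overlaps and transcript lengths (longest principal transcript) come from GENCODE M21 on GRCm38, the assembly that mm10 denotes, and promoters from RefSeq on GRCm38.p6. The floor of 3 counts covers counting error only.

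Named genes are all called members, members with a mean of at least 10 counts in a diet, their ligands or receptors, and up to 3 called genes with the smallest p per list and direction. Other members and list genes were named after their values were seen. A gene that meets the symbol rule is not reported here and is left out of every count of members, though not of the fit. Members and lists were chosen with earlier results of these data known.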

Additional observations from a re-analysis of the deposited data

How the results depend on the processing

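The 8 rises were also 8 with RLE scaling, with library size only (which moved the median of all genes from -0.02 to 0.25 on the log2 scale) and without HFHS replicate 3, and 10 with DESeq2, where Ccl2 and Ccr1 were added. They were 3 with limma-voom (Ackr3, Cx3cr1 and Cxcl16) and 5 with no filter on low counts, where Ccr2 (adjusted p = 0.0674), Ccl6 (0.0965) and Cxcr4 (0.0508) were lost. Over all 12949 genes tested, 1428 were called higher in the main fit, 1410 with RLE scaling and 1928 with library size only. DESeq2 called 1811 of them higher and limma-voom 997, and the fit with no filter called 1460 of 17877. Leaving out each library in turn gave 0 to 8 rises and 0 falls among members, against 4 to 1565 rises and 2 to 702 falls over all genes. Ackr3 and Cx3cr1 were called under 11 of the 12 alternatives run, all but that without chow replicate 3. Members under the detection floor came to 16 with a floor of 10 counts in place of 3, and to 9 to 13 with each library left out.

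The replicate numbers are shared between the diets, and nothing in the labels pairs the samples by them. Deviations of same-numbered libraries from their diet mean correlated at -0.25, -0.17 and 0.03 across genes for numbers 1, 2 and 3. Deviations from a mean of 3 libraries are bound to each other, so these values cannot exclude a pairing. With the replicate block 5 members were called higher and 0 lower, against 8 and 0, and Ccr2 (adjusted p = 0.0693), Ccl6 (0.147) and Cxcl14 (0.0808) were lost. Over all genes the block fit called 961 higher and 282 lower, against 1428 and 468 in the main fit.

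Signs turned for members near 0 or resting on 1 library, none of them called. Ccl25 turned to -0.02 with limma-voom and -0.13 without HFHS replicate 3 (left-out range -0.13 to 0.22). Cxcl1 turned to -0.01 without chow replicate 2 and -0.74 without HFHS replicate 2 (range -0.74 to 0.76). Cxcl9 turned to 0.53 without chow replicate 1 (range -1.11 to 0.53) and Cxcl10 to -0.65 without HFHS replicate 2 (range -0.65 to 1.64). Cxcl11 turned to 0.24 with library size only and 0.01 without chow replicate 2 or HFHS replicate 3 (range -0.10 to 0.01), and Cxcl12 to 0.07 with library size only. The cause was not tested. Members below about 10 counts were left out by the filter on low counts, and 50 members entered the fit with no filter.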

Other observations

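Many members are neighbours on the chromosome. No difference between neighbours was tested. On chromosome 9, Ccr9, Cxcr6, Ccr1, Ccr3 and Ccr2 lie in that order within 435 kilobases. Of these, Ccr2 was called higher at 3.52 on the log2 scale, Ccr1 stood at 3.37 and Cxcr6 at 1.73 without passing, and Ccr3, too low for the test, had 9 counts in all on the HFHS diet and 3 in chow. On chromosome 11, Ccl5, Ccl9, Ccl6, Ccl3 and Ccl4 lie within 139 kilobases, where Ccl6 was called at 2.81 on the log2 scale. Ccl4 stood at 2.41, Ccl3 at 1.83, Ccl5 at 1.78 and Ccl9 at -0.31, none past the test. A second group on that chromosome, Ccl2, Ccl7, Ccl11, Ccl12, Ccl8 and Ccl1, spans 270 kilobases, and there Ccl2 alone had enough reads for the test. On chromosome 8, Cx3cl1 was called between Ccl22, with 54 counts on the HFHS diet and 5 in chow, and Ccl17, with 4 and 1.

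CXC ligands form 2 groups on chromosome 5. In the group Cxcl5, Cxcl3, Cxcl15, Cxcl1 and Cxcl2 only Cxcl1 could be tested. In the group Cxcl9, Cxcl10 and Cxcl11, which spans 44.1 kilobases, Cxcl9 and Cxcl10 in chow replicate 1 were at 5.21 and 3.34 times the mean of the other chow libraries, while Cxcl11 was at 0.871 times. In HFHS replicate 2 Cxcl10 was at 6.20 times the mean of replicates 1 and 3, Cxcl9 at 0.909 and Cxcl11 at 1.11 times. These ratios are of single libraries and have no test.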
